A study of Mus musculus with 5 samples.

Results

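Metallothioneins and the antioxidant genes of the transcription factor Nrf2 were described in mouse kidney cells from a unilateral ischemia-reperfusion (UIR) model, in which the left renal pedicle is clamped and released. The members were the matrix rows with the symbols Mt1, Mt2, Nqo1, Srxn1, Txnrd1, Gclc, Gclm, Osgin1, Nfe2l2 and Keap1, 10 of 32285 genes. The labels listed 5 samples from male C57BL/6J mice, with 1 sham-operated sample and 1 UIR sample for each of days 1, 3, 14 and 28, and gave 3 mice per kidney sample. The deposited matrix held 5 libraries told apart only by a number at the end of the cell barcode, and no label tied that number to a condition. All cells were therefore read as 1 pooled sample, the libraries were named 1 to 5, and no value is a comparison of sham with UIR or of time points.

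Conditions had no replicates, and no test was run. A level is given in CPM, the share of a group's summed unique molecular identifiers (UMIs) that belonged to the gene, per 1e6 UMIs, with an exact Poisson 95% interval in brackets. A log2 ratio of levels carries an exact conditional binomial interval. Intervals cover counting error only. The labels named the cell type of the samples as Goblet cell. The goblet cell genes Muc2, Spdef, Fcgbp, Zg16 and Clca1 together had 107 UMIs in 100 of 57709 cells, whereas 43169 cells (74.8%) passed a gate of proximal tubule markers. The 5 libraries held 10020, 11311, 19071, 8275 and 9032 cells at median depths of 4038 to 5328 UMIs, and 352 barcode sequences occurred in more than 1 library. Each class marker was highest in its own class, which the gating on these markers largely fixes. A further 6327 cells passed no gate and 2252 passed several, and these stayed out of the class levels.

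Mt1 and Mt2 encode small cysteine-rich proteins that bind zinc and copper, and the zinc-sensing factor MTF-1 drives them through metal response elements (MREs). Nfe2l2 encodes Nrf2, which Keap1 targets for degradation until oxidants or electrophiles modify Keap1. Nrf2 then binds antioxidant response elements (AREs) and drives genes for glutathione, thioredoxin and quinone metabolism. In the kidney both systems are known as responses to metals and to oxidative stress.

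RefSeq windows from 250 bases before to 50 bases after a transcript start (GRCm38.p6) matched 9 of 10 members. Both strands were searched for the ARE letters TGACNNNGC and for the MRE cores TGCACNC and TGCGCNC. An ARE match lay in windows of Nfe2l2, Srxn1, Gclm, Txnrd1 and Mt2, and 12.4% of all 32851 windows held one. Mt2 held 4 MRE cores, Mt1 held 3, Gclm held 3 and Srxn1 held 1, whereas 1.97% of all windows held 3 or more. One Gclm core overlapped its ARE match. No match lay in the windows of Nqo1, Osgin1 and Keap1. The bases before the RefSeq start of the neighbouring metallothionein genes are shown with ARE and MRE matches in capitals. The Mt1 cores at bases 3 and 21 and the Mt2 core at base 5 lie after the RefSeq start and outside these stretches. The gene annotation starts Mt2 later, at base 94172664 of chr8, past its core at base 5 and the end of its stretch at 94172617. Elements outside the windows were not searched, and a part of these sequences in the ratio of the pair was not tested.
Mt2, chr8:94172368-94172617, + strand: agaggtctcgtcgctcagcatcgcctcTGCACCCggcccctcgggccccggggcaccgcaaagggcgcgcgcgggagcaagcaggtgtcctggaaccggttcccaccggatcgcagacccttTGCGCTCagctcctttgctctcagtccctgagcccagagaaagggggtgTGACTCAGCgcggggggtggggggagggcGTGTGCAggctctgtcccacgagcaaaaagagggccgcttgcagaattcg
Mt1, chr8:94178839-94179088, + strand: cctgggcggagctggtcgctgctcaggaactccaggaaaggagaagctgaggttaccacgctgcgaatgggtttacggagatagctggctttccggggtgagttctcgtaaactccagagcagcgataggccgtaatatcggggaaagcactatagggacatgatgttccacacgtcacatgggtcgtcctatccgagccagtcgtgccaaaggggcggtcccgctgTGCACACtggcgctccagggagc
The stretch around the ARE match, in capitals, is shown for the glutathione and thioredoxin enzyme genes Gclm and Txnrd1 and for the gene of Nrf2 itself.
Gclm, chr3:122245397-122245457, + strand: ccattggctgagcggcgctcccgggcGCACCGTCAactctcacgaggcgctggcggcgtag
Txnrd1, chr10:82859088-82859148, + strand: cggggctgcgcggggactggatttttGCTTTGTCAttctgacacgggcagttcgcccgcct
Nfe2l2, chr2:75704853-75704913, - strand: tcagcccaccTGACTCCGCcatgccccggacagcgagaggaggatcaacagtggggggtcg
The Mt2 stretch overlaps an exon of the antisense gene Gm45774, and the Nfe2l2 stretch an exon of the non-coding gene E030042O20Rik. In the gene annotation of GRCm38 the members lie as follows: Mt1 at chr8:94179082-94180327 (+ strand), Mt2 at chr8:94172664-94173568 (+ strand), Nqo1 at chr8:107388225-107403206 (- strand), Srxn1 at chr2:152105516-152111376 (+ strand), Txnrd1 at chr10:82833951-82897712 (+ strand), Gclc at chr9:77754535-77794485 (+ strand), Gclm at chr3:122245557-122270732 (+ strand), Osgin1 at chr8:119434124-119446256 (+ strand), Nfe2l2 at chr2:75675513-75704641 (- strand) and Keap1 at chr9:21229730-21239361 (- strand).

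Mt1 and Mt2 were most abundant in the distal nephron and low in the proximal tubule. Mt1 stood at 5593 CPM [5527 to 5660.1] in 755 thick ascending limb-like cells, 3586 CPM [3510.4 to 3662] in 362 distal convoluted tubule-like cells and 122 CPM [121 to 124] in proximal tubule-like cells. Between these were intercalated-like cells at 1245 CPM [1164 to 1330.0], monocyte/macrophage-like cells at 1084 CPM [1059.8 to 1108] and fibroblast/pericyte-like cells at 1063 CPM [955 to 1179.9]. With libraries together the fibroblast/pericyte-like interval overlapped both of the others, and the intercalated-like interval lay above the monocyte/macrophage-like one. Of the 882 intercalated-like Mt1 UMIs 610 came from library 3, and of the 352 fibroblast/pericyte-like ones 254 came from library 1. The order of these classes thus rests largely on single libraries. T/NK-like cells were lowest, at 75.1 CPM, and without library 3 at 42.0 CPM. Mt2 headed the same classes, with 1395 CPM in thick ascending limb-like and 877 CPM in distal convoluted tubule-like cells, and stood at 17.3 CPM in proximal tubule-like cells. Without library 3 the distal convoluted tubule-like level of Mt1 was 2322 CPM, and Mt2 stood at 588, 486 and 3.98 CPM in thick ascending limb-like, distal convoluted tubule-like and proximal tubule-like cells.

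**Figure D1:**
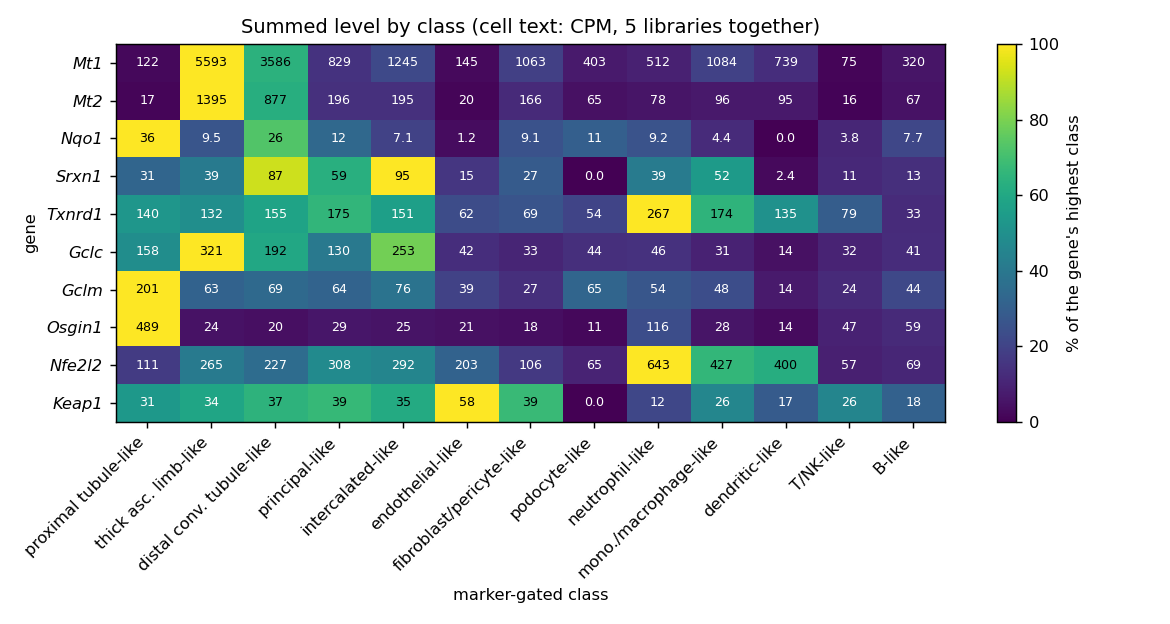
Summed level of the 10 members in 13 marker-gated classes, libraries together. Colour gives the percentage of each gene's highest class and the printed values are CPM. The metallothioneins peak in thick ascending limb-like cells, Osgin1, Gclm and Nqo1 in proximal tubule-like cells and Nfe2l2 in neutrophil-like cells.

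The excess of Mt1 in the thick ascending limb was present in all 5 libraries. Thick ascending limb-like cells held 1656, 2815, 8036, 3827 and 3596 CPM in libraries 1 to 5, and proximal tubule-like cells held 22.9, 41.0, 300.1, 104 and 69.6 CPM. The classes did not overlap, and library 3 was highest in both. Without it the pooled levels of Mt1 were 2561 CPM in thick ascending limb-like and 59.2 CPM in proximal tubule-like cells. With all libraries the log2 ratio between the classes was 5.51 [5.49 to 5.54] for Mt1 and 6.34 [6.28 to 6.39] for Mt2, and without library 3 it was 5.44 [5.39 to 5.48] and 7.21 [7.08 to 7.34]. In monocyte/macrophage-like cells Mt1 was 860.4, 1329.8, 1074, 934 and 436 CPM, with library 2 highest and library 5 lowest.

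Mt1 in cell-free RNA, measured in barcodes too shallow to be cells, followed the library order of the thick ascending limb-like and proximal tubule-like levels. It did not follow that of the monocyte/macrophage-like levels. Mt1 in this ambient profile was 175, 268, 817, 511 and 450.3 CPM in libraries 1 to 5, above the proximal tubule-like level and below the thick ascending limb-like level of every library. Thick ascending limb markers in proximal tubule-like cells stood at 8.44, 6.67, 39.6, 12.4 and 9.17% of their ambient level. Taking away the ambient profile at that share, with values below 0 set to 0, left 8.92, 24.7, 0, 45.6 and 31.2 CPM of Mt1 in proximal tubule-like cells. In library 3 the amount taken away exceeded the measured level of the class, so its 0 does not tell how much was cell-free RNA. The thick ascending limb-like level there became 9203 CPM, scaled to the remaining UMIs. That class-wide share covered subsets that differed. In library 3 the share was 26.4% in cells gated as the first proximal segment (S1), 16.5% in those gated as the last (S3), 50.4% in those of no segment gate and 31.8% in cells positive for the injury marker Havcr1. With each subset's own share, 51.9 CPM were left in S1-gated and 27.1 CPM in Havcr1-positive cells, and 0 CPM in S3-gated cells and in those of no segment gate.

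**Figure D2:**
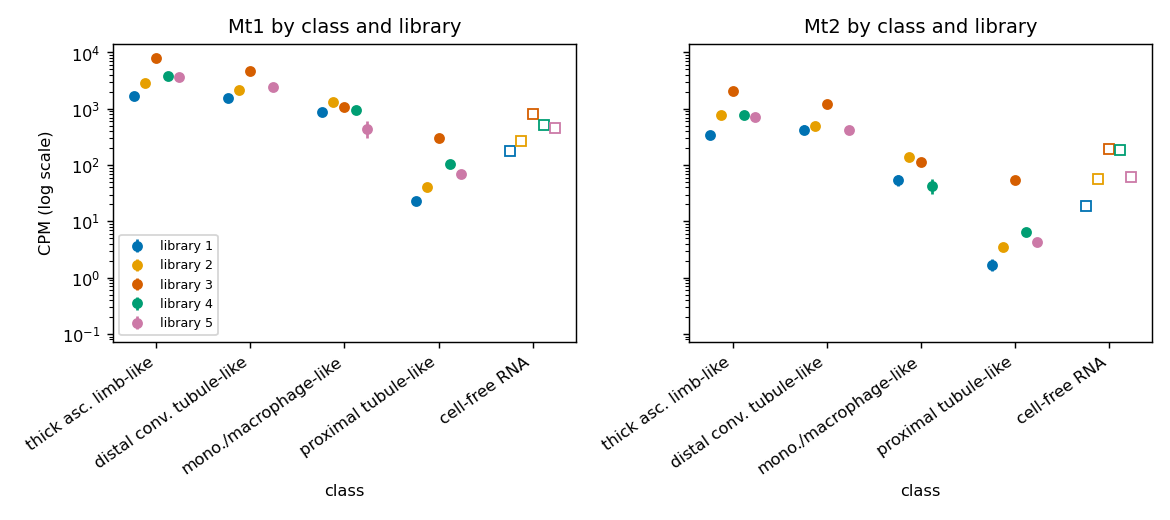
Mt1 and Mt2 in CPM on a log axis, by class, with 1 point per library and exact Poisson 95% intervals; open squares give the ambient profile. Groups under 20 cells and levels of 0 are not drawn. Proximal tubule-like points lie below the ambient square of their library and thick ascending limb-like points above it.

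The pair did not keep 1 ratio across classes. Mt1 UMIs per Mt2 UMI numbered 4.01 [3.90 to 4.12] in thick ascending limb-like cells, 4.09 [3.90 to 4.29] in distal convoluted tubule-like cells and 11.3 [10.5 to 12.3] in monocyte/macrophage-like cells. By library the ratio was 3.58 to 5.14 in the thick ascending limb-like cells of 5 libraries and 9.62 to 22.3 in the monocyte/macrophage-like cells of libraries 1 to 4. Within the latter class, C1q-high cells of library 3 were at 4.93 [4.05 to 6.03], inside the thick ascending limb-like range, and classical monocyte-gated cells of library 2 at 5.80 [3.33 to 10.8]. In proximal tubule-like cells it was 13.5, 11.7, 5.49, 16.1 and 16.3, lowest in library 3. Of the other metallothioneins on the list, Mt4 had no UMI in any class and Mt3 reached at most 3.83 CPM in a class with libraries together. Without library 3, Mt3 was 7.37 CPM in thick ascending limb-like cells.

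Osgin1, Gclm and Nqo1 had their highest pooled level in the proximal tubule. Osgin1, an oxidative stress-induced growth inhibitor gene, stood at 489 CPM [487 to 492] there, and the next class was neutrophil-like cells at 116 CPM [99.3 to 134]. Gclm, the modifier subunit of the enzyme that limits glutathione synthesis, stood at 201 CPM [199 to 203], with no other class above 76.2 CPM, the level of intercalated-like cells. Without library 3 these held 45.8 CPM, and without library 2 the 23 podocyte-like cells left held 101 CPM. Nqo1, a quinone reductase gene, stood at 35.9 CPM [35.2 to 36.6] in proximal tubule-like and 26.1 CPM [20.1 to 33.4] in distal convoluted tubule-like cells. Without library 3 these were 37.6 CPM and 39.6 CPM [29.0 to 52.9], with overlapping intervals. Dendritic-like cells held no Nqo1 UMI in 72 cells, where 3 UMIs would be 7.11 CPM and the upper bound of the exact Poisson interval was 8.74 CPM. A Nqo1 UMI was found in 16.7% of proximal tubule-like cells (median 5331 UMIs) and 0.805% of T/NK-like cells (median 1716 UMIs). Thinned to 1000 UMIs per cell the shares were 3.50% and 0.433%, with 4137 and 89 shallower cells left out.

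The pooled levels of the remaining antioxidant enzymes were highest in other classes, but for Gclc and Txnrd1 that order rested on 1 library. Gclc, the catalytic subunit of the same glutathione enzyme, stood at 321 CPM [305 to 337] in thick ascending limb-like, 253 CPM [217 to 293] in intercalated-like and 158 CPM [156 to 159] in proximal tubule-like cells. Without library 3 its thick ascending limb-like level was 126 CPM [111 to 142], below the 171 CPM of proximal tubule-like cells. Intercalated-like cells were then highest at 229 CPM [177 to 292], an interval that held the 222 CPM of distal convoluted tubule-like cells. Srxn1, which repairs over-oxidised peroxiredoxins, stood at 94.6 CPM [73.3 to 120.1] in intercalated-like and 87.5 CPM [76.1 to 100.1] in distal convoluted tubule-like cells, with overlapping intervals, and at 30.9 CPM in proximal tubule-like cells. Txnrd1, the cytosolic thioredoxin reductase, was highest in neutrophil-like cells at 267 CPM [241 to 294]. It ranged there from 89.9 CPM in library 1, with 58 such cells, to 385 CPM in library 2. Without library 2 the neutrophil-like level was 172 CPM [145 to 202], no longer above the 179 CPM of principal cell-like cells. With all libraries its levels in principal cell-like and monocyte/macrophage-like cells, 175 and 174 CPM, did not differ beyond their intervals.

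Members were compared between classes by a 2-fold threshold, among genes that passed a filter of 5 CPM averaged over the 2 groups. The comparison of thick ascending limb-like with proximal tubule-like cells was not planned and takes the class where Mt1 and Mt2 were highest. Its counts of members are a description. Between thick ascending limb-like and proximal tubule-like cells, 4 of 10 members were at least 2-fold higher and 3 at least 2-fold lower, where 18.7% of the 9976 genes past the filter were higher and 13.8% lower. The median log2 ratio was 0.24 over the members past the filter and 0.21 over all genes past it. Beside the metallothioneins, Nfe2l2 was higher at 265 against 111 CPM, with log2 ratios of 0.97 to 1.55 in the 5 libraries. Gclc was at least 2-fold higher in the pooled cells and, of the libraries, in library 3 alone, with log2 ratios of -0.86, 0.14, 2.01, 0.74 and -1.62 in libraries 1 to 5. Its thick ascending limb-like level was 103, 155, 478, 192 and 79.5 CPM and its proximal tubule-like level 186, 141, 119, 115 and 244 CPM in libraries 1 to 5. Without library 3 its log2 ratio was -0.45 and without library 4 0.97, against 1.02 with all. Osgin1, Gclm and Nqo1 were the lower members, at 24.2, 63.5 and 9.45 CPM in thick ascending limb-like cells, and were lower in every library.

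A list of 48 further genes of these pathways was read in the same way. Of 40 pathway genes past the filter, 5 were at least 2-fold higher in thick ascending limb-like cells, where 18.7% of all genes past the filter were higher and 13.8% lower. These were the efflux pump gene Abcc1 (42.6-fold), the aldo-keto reductase gene Akr1b8 (24.1-fold), the epoxide hydrolase gene Ephx1 (7.40-fold), the Nrf2 relative Nfe2l1 (6.12-fold) and the NADPH-supplying G6pdx (2.28-fold). A further 11 were higher in proximal tubule-like cells, led by the efflux pump gene Abcc2 (21.6-fold), the NADPH-supplying Me1 (12.3-fold) and Idh1 (7.39-fold), the haem oxygenase gene Hmox1 (6.65-fold), the glutathione synthetase gene Gss (5.82-fold), Gstm1 (3.90-fold), Ugdh (3.61-fold) and Ggt1 (3.52-fold). The named genes kept their direction in every library that gave a ratio, and Abcc2 had no thick ascending limb-like UMI in library 1. Without library 3, Abcc1 was 71.5-fold higher in thick ascending limb-like cells, on 81 and 101 UMIs. In proximal tubule-like cells Abcc2, Me1 and Idh1 were then 68.5-fold, 24.4-fold and 12.4-fold higher, with 9, 24 and 63 UMIs in the thick ascending limb-like cells.

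Of the 2 gated proximal segments, the metallothioneins were higher in the first (S1, 9752 cells) and 4 Nrf2 genes in the last (S3, 8988 cells). A further 23416 cells of no segment gate stayed out of this comparison. With libraries together they held 150 CPM of Mt1 and 25.1 CPM of Mt2, against 183 and 18.7 CPM in S1-gated cells. Mt1 was 64.8, 101, 254, 177 and 197 CPM in S1-gated cells of libraries 1 to 5 and 8.51, 7.95, 106, 31.6 and 25.8 CPM in S3-gated cells. S1 was higher in every library, and the pooled log2 ratio of S3 over S1 was -3.40 [-3.49 to -3.32]. Library 3, with 123 S3-gated cells, gave -1.26 [-1.58 to -0.97]. After the ambient step nothing was left of the S3-gated level in any library, and 58.8, 93.6, 51.9, 141 and 172 CPM were left in S1-gated cells. In every library the amount taken away exceeded the measured S3-gated level, so the step does not tell how much of that level was cell-free RNA.

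**Figure D3:**
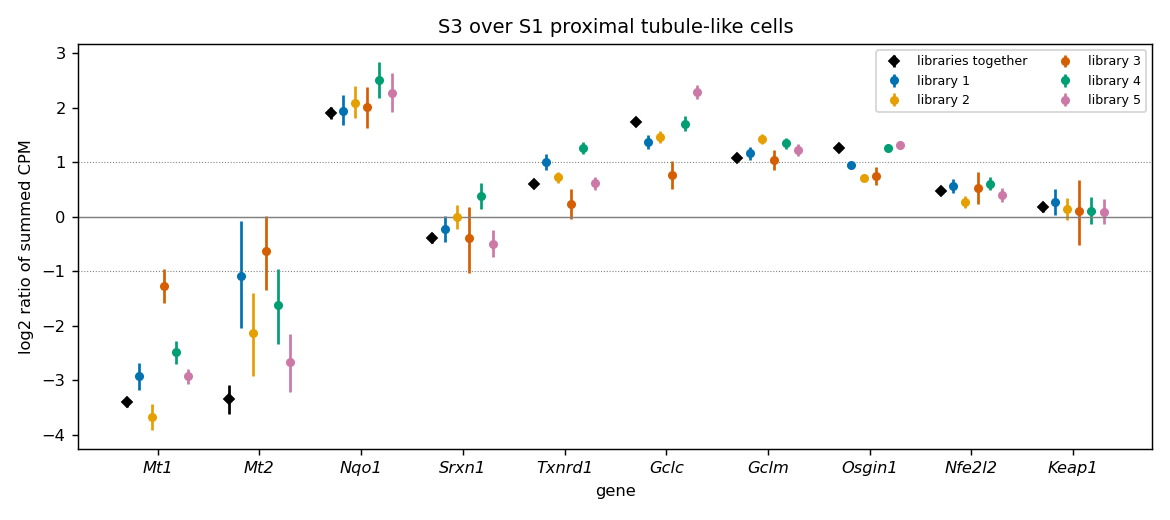
Log2 ratio of summed CPM in S3-gated over S1-gated proximal tubule-like cells for each member, libraries together and each library, with exact conditional binomial 95% intervals. Dotted lines mark 2-fold. Mt1 and Mt2 lie below 0 and Nqo1, Gclc, Gclm and Osgin1 above 0 in all 5 libraries.

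The S3 excess was largest for Nqo1 pooled and in libraries 1 to 4, while in library 5 the log2 ratio was 2.29 for Gclc and 2.27 for Nqo1. Nqo1 was 70.1, 40.0, 76.6, 49.9 and 46.4 CPM in S3-gated and 18.2, 9.36, 19.0, 8.80 and 9.64 CPM in S1-gated cells of libraries 1 to 5, with no overlap between segments and a pooled log2 ratio of 1.90 [1.79 to 2.01]. Gclc followed at 1.74 [1.70 to 1.79], on 259 against 77.4 CPM. Osgin1 was 709 against 295 CPM and Gclm 263 against 124 CPM, and all 3 were higher in S3 in every library. Without library 2 the log2 ratio of Gclm was 0.98, against 1.08 with it. Mt2 was lower in S3 in every library, with a log2 ratio of -3.35 pooled and -2.26 without library 3. The pooled log2 ratios of Txnrd1, Nfe2l2, Keap1 and Srxn1 were within 2-fold, at 0.61, 0.48, 0.17 and -0.40. By library Txnrd1 was 1.001, 0.72, 0.23, 1.26 and 0.61, past 2-fold in libraries 1 and 4, and Srxn1 was -0.23, -0.01, -0.40, 0.38 and -0.50, higher in S3 in library 4 alone. Nfe2l2 and Keap1 were higher in S3 within 2-fold in every library. In all, 4 members were at least 2-fold higher and 2 lower in S3, where 4.34% of the 9295 genes past the filter were higher and 7.11% lower. Members past the filter had a median log2 ratio of 0.54, against -0.16 for all genes past it.

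The pathway list split in both directions, with 7 of 37 genes past the filter higher in S3 and 5 higher in S1, where 4.34% of all genes past the filter were higher and 7.11% lower. The glutathione-cleaving Ggt1 (4.43-fold), the glutathione transferase gene Gstm1 (3.36-fold), Me1 (2.58-fold), Akr1b3 (2.17-fold), Gss (2.14-fold), Ugdh (2.12-fold) and the zinc exporter gene Slc30a1 (2.07-fold) were higher in S3. Gsta4 (11.5-fold), the efflux pump gene Abcc4 (5.19-fold), the amino acid transporter subunit gene Slc3a2 (3.13-fold), the iron exporter gene Slc40a1 (2.74-fold) and Idh1 (2.58-fold) were higher in S1. All 12 kept their direction in each of the 5 libraries. The log2 ratio was -3.10, -2.39, -2.87, -2.32 and -4.35 in libraries 1 to 5 for Gsta4, -1.74, -3.17, -2.37, -1.52 and -3.35 for Abcc4 and 1.86, 2.15, 1.91, 1.54 and 2.10 for Ggt1. Slc30a1 fell to 1.92-fold without library 5, and Akr1b3 and Ugdh to 1.90-fold and 1.80-fold without library 1.

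Srxn1 had the largest excess of the members whose direction held within libraries in tubule cells carrying Havcr1 (KIM-1), a marker of injured proximal tubule. These 1013 proximal tubule-like cells, with at least 2 Havcr1 UMIs, were deeper than the other 42156 (medians of 8867 and 5258 UMIs), and 720 of them came from library 3. Srxn1 was 93.2, 73.5, 59.1 and 72.5 CPM in the Havcr1-positive cells of libraries 1 to 4 and 25.5, 23.8, 40.3 and 33.8 CPM in the others. It was higher in each library, least so in library 3, and the pooled log2 ratio was 1.14 [1.02 to 1.25]. Library 5 had 2 such cells and gave no value.

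Gclm, Txnrd1 and Gclc were higher within 2-fold, with pooled log2 ratios of 0.45, 0.36 and 0.31 and positive values in libraries 1 to 4. For Gclc the library values, 0.40, 0.95, 0.53 and 0.98, were all above the pooled one. Osgin1 was lower, at 239.7 against 499.7 CPM, with log2 ratios of -1.27, -1.47, -0.20 and -0.60 in those libraries and a pooled value of -1.06, which was -0.93 without library 1 and -0.99 without library 2. Of the 10 members, 1 was at least 2-fold higher and 1 lower, where 2.35% of the 9312 genes past the filter were higher and 1.23% lower. The median log2 ratio was 0.33 over the members past the filter and 0.04 over all genes past it. Of 40 pathway genes past the filter, the small Maf gene Maff (3.52-fold), Akr1b8 (2.96-fold) and Ephx1 (2.28-fold) were at least 2-fold higher, and none was lower. In libraries 1 to 4 their log2 ratios were 2.55, 2.23, 0.98 and 2.07 for Maff, 1.53, 2.27, 0.61 and 0.61 for Akr1b8 and 1.99, 2.5, 0.16 and 1.45 for Ephx1, all positive, with intervals that covered 0 for Akr1b8 in libraries 1 and 4 and for Ephx1 in library 3. Without library 3 they were 5.78-fold, 4.01-fold and 4.77-fold higher, and without library 2 Ephx1 was 1.48-fold higher.

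The measured metallothionein ratios were above 0 pooled and below 0 within libraries, past the counting interval in library 3 and for Mt1 also in library 2, and the ambient step left no common direction. Pooled, Mt1 was 199.9 CPM in Havcr1-positive cells and 119 CPM in the others, a log2 ratio of 0.75 [0.68 to 0.81]. Within libraries 1 to 4 it was -0.22, -0.80, -0.12 and -0.12, with intervals below 0 in libraries 2 and 3 and covering 0 in libraries 1 and 4, and without library 3 the pooled value was -0.35 [-0.58 to -0.13]. Library 3, which held most Havcr1-positive cells, had 279 CPM in them and 303 CPM in its other proximal tubule-like cells. With the ambient profile taken away, 8.70, 1.28, 27.1 and 0 CPM were left in the Havcr1-positive cells of libraries 1 to 4 and 8.92, 25.6, 0 and 47.8 CPM in the others. The Havcr1-positive cells were then higher in library 3 and lower in libraries 2 and 4. In library 1, with 11 Havcr1-positive Mt1 UMIs, the remainders hardly differed. None of these remainders carries an interval. Each 0 marks an amount taken away that exceeded the measured level. Mt2 was 0.94 pooled, -0.25 without library 3 and -0.38, -0.25 and -0.11 in libraries 2, 3 and 4, where libraries 2 and 4 had 5 and 7 Havcr1-positive UMIs and intervals that covered 0, and at most 0.165 CPM of it was left in any of these groups. Cells with at least 2 Vcam1 UMIs and no Havcr1 UMI, a gate for failed-repair tubule, numbered 180 and held 65.9 CPM [55.4 to 77.9] of Mt1 and 30.3 CPM [23.3 to 38.8] of Srxn1. Their Mt1 level was 99.2 CPM without library 2 and 44.2 CPM without library 1.

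**Figure D4:**
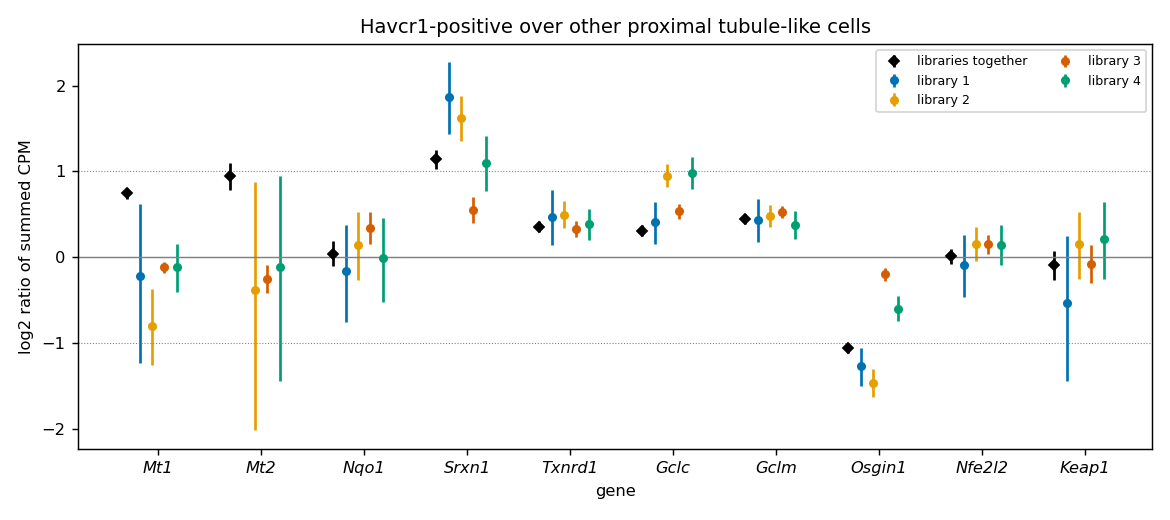
Log2 ratio of summed CPM in Havcr1-positive over other proximal tubule-like cells for each member, libraries together and libraries 1 to 4, with exact conditional binomial 95% intervals. Srxn1 is above 0 in all 4 libraries, and Mt1 is above 0 pooled and below 0 in each library.

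Library 3 stood apart for several members. Its comparison with the other libraries was not planned and takes the library where tubule Mt1 and Mt2 were highest, so its counts of members are a description. In proximal tubule-like cells Mt1 was 5.07-fold and Mt2 13.7-fold the level of the other libraries, and the ambient step left 0 CPM of Mt1 in library 3 over the class but 51.9 CPM in its S1-gated and 27.1 CPM in its Havcr1-positive cells. Osgin1 was 267 CPM there and 730.1, 472, 506 and 580.4 CPM in libraries 1, 2, 4 and 5. The segments moved with these values, since library 3 held 4033 of the 9752 S1-gated but 123 of the 8988 S3-gated cells. Within S1-gated cells library 3 was 1.84-fold for Mt1, 4.71-fold for Mt2 and 0.686-fold for Osgin1. Within S3-gated cells Osgin1 was 389 CPM in library 3 and 884, 609, 672 and 659 CPM in the others. Over all proximal tubule-like cells, 2 members were at least 2-fold higher in library 3 and 1 lower, where 3.9% of the 9328 genes past the filter were higher and 2.11% lower. The median log2 ratio was -0.11 over the members past the filter and 0.10 over all genes past it. In thick ascending limb-like cells Gclc, Mt2 and Mt1 were 3.80-fold, 3.48-fold and 3.14-fold the level of the other libraries and no member was 2-fold lower, where 2.57% of the 9893 genes past the filter were higher and 9.61% lower. The median log2 ratio was 0.72 over the members past the filter and -0.23 over all genes past it. Of 40 pathway genes past the filter in these cells, 5 were higher in library 3, with log2 ratios of 2.30 for Abcc2, 1.97 for the ferritin heavy chain gene Fth1, 1.38 for Idh1, 1.27 for Me1 and 1.20 for Akr1b8. The 2 lower were Ephx1 at -1.55 and Hmox1 at -1.16. The ambient profile was not taken away from these ratios, and Abcc2, Idh1 and Me1 were far higher in proximal tubule-like cells. Proximal tubule markers in thick ascending limb-like cells stood at 7.99, 3.32, 13.9, 7.29 and 10.5% of their ambient level in libraries 1 to 5. The part of cell-free RNA in the ratios was not tested. In proximal tubule-like cells 2 of 38 were higher, Gsta4 at 1.79 and Akr1b8 at 1.63, and 1 was lower, Ggt1 at -1.22. In monocyte/macrophage-like cells as a whole Mt1 was 1074 CPM in library 3 and 1088 CPM in the others, but the make-up of the class differed, since library 3 held 247 of the 355 classical monocyte-gated and 87 of the 765 C1q-high cells. Mt1 was 1637 CPM [1509 to 1774] in its C1q-high cells, against 1175 CPM [1139.5 to 1212] in those of the other libraries, and 791 CPM [736 to 848] in its classical monocyte-gated cells, against 479 CPM [415 to 549.7]. Library 3 was thus higher within both, although its intervals overlapped those of library 2 in C1q-high cells, 1462 CPM [1406 to 1519.8], and of library 4 in classical monocyte-gated cells, 712 CPM [582 to 863].

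With libraries together Nfe2l2 was highest in the myeloid classes. It stood at 643 CPM [604 to 685] in neutrophil-like, 427 CPM [412 to 442] in monocyte/macrophage-like and 400.3 CPM [342 to 465] in dendritic-like cells, the last 2 with overlapping intervals. Principal cell-like, intercalated-like, thick ascending limb-like and distal convoluted tubule-like cells followed at 308, 292, 265 and 227 CPM. In library 3 the monocyte/macrophage-like level, 289 CPM, was close to the thick ascending limb-like level, 282 CPM. Lymphoid cells were low, at 56.7 CPM in T/NK-like and 69.2 CPM in B-like cells. Keap1 was highest in endothelial-like cells at 57.9 CPM [47.1 to 70.4] and stood at 12.4 CPM [7.48 to 19.4] in neutrophil-like cells.

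Neutrophil-like cells exceeded monocyte/macrophage-like cells for Nfe2l2 in libraries 1 to 4. Library 1 had 58 neutrophil-like cells and library 5 had 1. The levels were 899, 896, 368 and 572 CPM in neutrophil-like and 544, 559, 289 and 269 CPM in monocyte/macrophage-like cells of libraries 1 to 4, and the pooled log2 ratio was 0.59 [0.49 to 0.70], within 2-fold. Library 3 was the lowest for neutrophil-like cells. Osgin1 was 116 against 28.3 CPM, a log2 ratio of 2.03 [1.73 to 2.33], and was higher in all 4 libraries. Its neutrophil-like levels of 71.9, 118, 88.3 and 233 CPM were below the ambient 213, 370.3, 98.7 and 347 CPM. With the ambient profile taken away, 30.04, 93.0, 84.3 and 211 CPM were left in neutrophil-like cells of libraries 1 to 4. In monocyte/macrophage-like cells 5.76, 5.83, 15.7 and 16.6 CPM were left, less in each library. These remainders carry no interval, and that of library 1 rests on very few UMIs in 58 neutrophil-like cells. Nqo1 was the other member at least 2-fold higher, at 1.07 [0.04 to 2.02] on 14 and 31 UMIs. It had no neutrophil-like UMI in libraries 1 and 4, its intervals in libraries 2 and 3 covered 0, and its neutrophil-like 9.15 CPM lay below its ambient 23.6 CPM.

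Mt1 and Keap1 were the lower members in neutrophil-like cells. Mt1 was 71.9, 310.0, 836 and 245 CPM in neutrophil-like cells of libraries 1 to 4, lower than in monocyte/macrophage-like cells each time, and the ambient profile held 175, 268, 817 and 511 CPM. Keap1 was 12.4 against 26.5 CPM. These 2 members higher and 2 lower stood where 16.9% of the 9101 genes past the filter were higher and 21.5% lower. Members past the filter had a median log2 ratio of 0.37, against -0.14 for all genes past it. The members past 2-fold depended on libraries 2 and 3. Without library 2, Mt1, Keap1 and Nqo1 were within it at log2 ratios of -0.52, -0.78 and 0.98, while Gclc and Gclm passed it at 1.06 and 1.02. Without library 3, Mt1 was -1.94, Mt2 -3.31 on 8 neutrophil-like UMIs and Nqo1 0.81. Osgin1 stayed past 2-fold without any 1 library. Neutrophil-like cells were shallower, with medians of 1237 and 3692.5 UMIs in the 2 classes.

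Of 43 pathway genes past the filter, 12 were higher in neutrophil-like and 10 in monocyte/macrophage-like cells, where 16.9% of all genes past the filter were higher and 21.5% lower. Chac1, a glutathione-degrading enzyme gene, had a log2 ratio of 5.97 [3.98 to 9.09] on 2 UMIs in the monocyte/macrophage-like cells. The cystine transporter gene Slc7a11 was 882 against 103 CPM (8.54-fold), followed by Slc40a1 (4.95-fold), the glutathione reductase gene Gsr (4.95-fold), Sesn2 (4.37-fold), Gsta4 (3.19-fold), Me1 (2.65-fold) and the peroxiredoxin gene Prdx6 (2.40-fold). The ambient profile was not taken away from these ratios. Proximal tubule markers stood at 22.9, 8.87, 28.0 and 15.9% of their ambient level in neutrophil-like cells of libraries 1 to 4. In monocyte/macrophage-like cells they stood at 9.59, 5.08, 17.6 and 6.06%. Me1 was 243 CPM in proximal tubule-like, 41.8 CPM in neutrophil-like and 15.8 CPM in monocyte/macrophage-like cells. Higher in monocyte/macrophage-like cells were Ephx1, with a log2 ratio of -3.47 [-6.54 to -1.58] on 2 neutrophil-like UMIs, Akr1b3 (8.52-fold), the biliverdin reductase gene Blvrb (5.14-fold), Hmox1 (4.16-fold), Abcc1 (3.84-fold), the carbonyl reductase gene Cbr3 (3.34-fold), Prdx1 (3.21-fold) and the metal importer gene Slc39a14 (2.63-fold). In libraries 1 to 4 the log2 ratio was 3.36, 2.95, 2.94 and 3.04 for Slc7a11, 5.74, 2.48, 1.24 and 3.13 for Gsr, 2.70, 2.08, 1.86 and 2.38 for Sesn2 and -2.95, -2.82, -1.85 and -1.77 for Blvrb. Without library 3, Gsta4 was 1.07-fold and Me1 1.995-fold higher in neutrophil-like cells, and Gsr 8.52-fold. For the genes higher in monocyte/macrophage-like cells the fold without library 3 was 32.0 for Akr1b3, 6.53 for Prdx1, 2.58 for Hmox1 and 2.23 for Abcc1. Without library 2 it was 5.02, 1.80, 7.20 and 7.54 for the same genes and 2.08 for Cbr3. The log2 ratio of Chac1 was 5.20 without library 2 and 6.93 without library 3, and that of Ephx1 -4.19 without library 3. In single libraries Slc39a14 turned in library 4 and Ephx1 in library 3, each on at most 2 neutrophil-like UMIs.

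Within the monocyte/macrophage gate, 765 C1q-high cells were set beside 355 classical monocyte-gated cells, a comparison chosen after its values were seen. Srxn1 was 68.6 against 22.0 CPM, with log2 ratios of 1.88, 1.84 and 1.47 in libraries 2, 3 and 4. Mt2 was 125 against 42.0 CPM, with 0.97, 3.04 and 1.22. The ratios of libraries 2 and 4 rest on few UMIs. Classical monocyte-gated cells held 31 Srxn1 UMIs with all libraries, 26 without library 2 and 29 without library 4. Their Mt2 UMIs numbered 59, 44 and 55 in the same order. These 2 of 9 members past the filter were at least 2-fold higher and none was lower, where 8.28% of the 8921 genes past the filter were higher and 8.24% lower. Members past the filter had a median log2 ratio of 0.62, against -0.11 for all genes past it. Mt1, Gclc and Gclm were within 2-fold with all libraries, at 0.81, 0.59 and 0.75, and past it without library 3, at 1.30 [1.09 to 1.51], 1.07 [-0.10 to 2.55] and 1.47 [0.52 to 2.62], the last 2 on 6 and 9 classical monocyte-gated UMIs. Without library 2, Mt1 was 0.47, Gclc 0.61 and Gclm -0.01 [-0.58 to 0.58], and without library 1 Gclm was 1.03. Nfe2l2 was 0.40 pooled but -0.08, -0.26 and -0.03 within libraries 2, 3 and 4. Of 42 pathway genes, 9 were higher and 3 lower.

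Likeness of pattern was computed as Pearson's r of log2(CPM + 1) over 18 class-and-library groups from 6 classes. The groups share libraries and classes, so r is a description. Among 5779 genes the nearest to Mt1 were Specc1 (0.93), Rtn4 (0.92), Arf3 (0.88), Ap2b1 (0.88) and Diaph2 (0.86), and the nearest to Nqo1 were Pdk2 (0.94), Tef (0.93), Tmem126b (0.93), Castor2 (0.93) and Kif12 (0.92). Between members r was 0.89 for Mt1 with Mt2, 0.75 for Gclm with Osgin1, -0.70 for Mt1 with Osgin1 and -0.52 for Nfe2l2 with Keap1.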

How the data were processed

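Per the labels the authors prepared 10x 3' v3.1 libraries and ran Cell Ranger 6.0 on mm10 (6.0.1 in the file header). The deposited matrix holds unfiltered UMI counts per gene and barcode, merged over 5 libraries. In each library cells were called here by a knee (10% of the 99th percentile of the deepest 3000 barcodes) and then, down to 500 UMIs, by a test against the ambient profile (barcode ranks 45000 to 90000, 10000 simulations, false discovery rate 0.01). That left 70370 barcodes, of which 57709 had at least 200 genes and at most 25% mitochondrial counts. In library 3 the ambient window reached 489 UMIs. A class gate asked for 2 markers, 3 marker UMIs and a rate of 4 to 64 marker UMIs per 10000 by class, set after marker, not member, distributions were seen. Segment gates asked for 8 per 10000 and a 4-fold excess. Doublets were kept, except in an alternative that removed 5938 cells. Free RNA in proximal tubule-like cells was scaled by thick ascending limb markers, because the neutrophil marker G0s2 exceeded its ambient level there, and in other classes by proximal tubule markers. The 3' assay counts a molecule once, so CPM had no length correction. Called higher or lower means at least 2-fold, among genes whose CPM averaged over the 2 groups was at least 5. Interval and cell-calling steps were tested on simulated data. The text names all members, up to 8 pathway genes in each direction past 2-fold and the 5 genes most like Mt1 and Nqo1. The C1q comparison was chosen after its values were seen. The comparisons of thick ascending limb-like with proximal tubule-like cells and of library 3 with the others were not planned either. The members and lists were chosen with earlier results of these data known. Python 3.11.15, numpy 2.4.6, scipy 1.17.1, pandas 2.3.3 and leidenalg 0.10.2 were used.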

Additional observations from a re-analysis of the deposited data

Results flagged for a closer look

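Mt1 UMIs were present in barcodes that no comparison used, and the share of cell-free RNA in these barcodes was not measured. The 12151 called barcodes above 25% mitochondrial counts held 312 CPM of Mt1 [307 to 317]. By library they held 149, 155, 889, 115 and 315 CPM, against 175, 268, 817, 511 and 450.3 CPM in the ambient profile, so library 3 alone was above its ambient level. The 6327 cells that passed no marker gate held 1448 CPM [1431 to 1464] of Mt1 at a median depth of 1326 UMIs, and 3686 of them were in library 3. Without library 3 the level was 466 CPM [451 to 481]. Thick ascending limb markers stood at 5.44 per 10000 UMIs in the ungated cells of library 3 and at 0.774 to 1.89 in those of the other libraries. Their part in the Mt1 level was not tested.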

How the results depend on the processing

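Values are log2 ratios unless called counts. Of 251 alternatives to 16 ratios past 2-fold, 249 kept the direction and 142 stayed within the interval. Of 323 alternatives to 20 ratios within 2-fold, 295 kept the direction and 221 stayed within the interval. Past 2-fold, the 2 that turned were Gclc in thick ascending limb-like over proximal tubule-like cells (1.02), at -0.69 with Leiden clusters as classes and -0.45 without library 3. Its range leaving out each library was -0.45 to 1.3. For Mt1 in the same classes (5.51), the ratio was 5.37 with filters alone, 5.22 and 5.43 at 10% and 50% mitochondrial limits, 4.6 with Leiden clusters, 5.89 with stricter gates, 5.77 without likely doublets, 5.03 as a mean over cells, 8.27 with the ambient profile taken away, 5.34 thinned to 1000 UMIs, 5.21 with libraries weighted equally and 5.41 to 5.5 leaving out each library. For Mt1 in library 3 over the others in proximal tubule-like cells (2.34), it was 2.39, 2.09, 2.29, 2.1, 1.9, 2.06 and 2.4 under the first 7 of these in that order, and 2.1 to 2.74 leaving out each other library. With the ambient profile taken away library 3 was at 0 and gave no ratio. For Srxn1 in Havcr1-positive cells (1.14), it was 0.97 at 10% mitochondrial counts, 1.27 without likely doublets, 0.99 as a mean over cells, 1.35 less ambient, 1 thinned, 1.37 with equal weights, 1.43 at 3 and 0.78 at 1 Havcr1 UMI, and 1.03 to 1.55 leaving out each library, highest without library 3. For Mt1 in S3 over S1 (-3.40), it was -3.17 at 10% mitochondrial counts, -3.51 with Leiden clusters, -3.31 as a mean over cells, -3.18 thinned, -2.14 with equal weights and -3.8 to -3.08 leaving out each library, and no ratio less ambient, since S3 was at 0. For Nfe2l2 in neutrophil-like over monocyte/macrophage-like cells (0.59), it was 0.15 with Leiden clusters, 0.83 with stricter gates, 0.7 with equal weights and 0.28 to 0.79 leaving out each library. Counts of members 2-fold apart in Havcr1-positive cells (2) were 1 at 10% mitochondrial counts, 1 with Leiden clusters, 1 at 1 Havcr1 UMI, 4 at 1.5-fold, 0 at 4-fold and 1 to 2 leaving out each library. At 4-fold they were 2 for S3 over S1 (6) and 1 for neutrophil-like cells (4), and 2 for the latter with a filter at 20 CPM. The causes were not tested. Libraries could not be tied to conditions, so depth, dissociation and condition cannot be told apart between them. Rare classes (53 fibroblast/pericyte-like, 54 podocyte-like, 72 dendritic-like cells) limit low members such as Nqo1. Classes were paired within libraries only as ratios, on which no test was run, and no label ties a library to a sample.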
